A study of Mus musculus with 2 samples.

Results

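The AP-1 family transcription factors were taken here as 9 genes, Fos, Fosb, Fosl1, Fosl2, Jun, Junb, Jund, Atf3 and Maff, out of 18193 genes named by the array annotation. They were chosen by symbol, using every probe set that the annotation assigns to 1 gene only. This gave 13 probe sets out of 34945. The probe sets had been measured in 2 ovarian RNA samples from wild type mice of the CD-1 background, 24 to 28 days old, with 1 array per treatment. All mice had received 5 IU of pregnant mare serum gonadotropin (PMSG), which grows preovulatory follicles, and 48 h later 5 IU of human chorionic gonadotropin (hCG), which starts ovulation through the luteinizing hormone (LH) receptor. Oil vehicle or ulipristal acetate (also labelled CDB), a synthetic modulator of the progesterone receptor, was given 2 h after hCG. Ovaries were collected at 11 h, and the labels do not say from which injection this was counted. The number of mice behind each sample is not stated.

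AP-1 is a dimer of basic leucine zipper proteins. FOS-type proteins need a partner, usually a JUN-type protein, whereas JUN-type proteins can also pair with each other, and the dimers bind the site TGACTCA in target genes. In the ovary, gonadotropins act through cyclic AMP and the ERK kinases to induce several of these genes in granulosa cells, and the family takes part in the change from a follicle to a corpus luteum. ATF3 and the small MAF protein MAFF share the same zipper fold. They pair with some of the same partners, and MAFF lacks an activation domain of its own.

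The values are MAS5 signals in arbitrary units, which combine the probes of a probe set into 1 number, scaled to a trimmed mean of 150.001 on both arrays. A probe set counted as measured when the geometric mean of both signals reached 30.8, the median over non-control probe sets, and signals below a floor of 7.17 were set to it. A gene was represented by its brightest measured probe set, and a difference of 2-fold or more was called. Since each treatment has a single array, the spread between animals is unknown, so the text gives no test and no p-value, and each comparison concerns these 2 samples alone. In whole ovaries, fewer cells of a type and less RNA per cell cannot be told apart.

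Of the 9 family members, 4 were at least 2-fold lower with ulipristal, 0 were at least 2-fold higher, 4 lay between and 1, Fosb, was too dim to be measured. Fosl1, Fos, Maff and Atf3 were the lower members. Junb and Jund were lower by less than 2-fold, and Jun and Fosl2 had nearly equal signals on both arrays. For comparison, 1.56% of the 11364 measured genes were lower by this limit and 3.34% higher. After quantile normalization the shares of genes were 1.75% lower and 2.35% higher. Over probe sets, the count of lower values was 4 of 13 for the members and 3.21% of all single-gene probe sets. A log2 ratio below 0 was found in 40.0% of measured genes and in all 8 measured members, or 7 of them after quantile normalization, which turned Fosl2. Fosl1 and Atf3 were above the signal cut on the vehicle array alone, so that their place among the measured genes came from the sample in which they were high. Over all 9 members, taking each by its brightest probe set and with Fosb included, the median log2 ratio was -0.90, against 0.022 for all 18193 named genes without the signal cut.

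**Figure D1:**
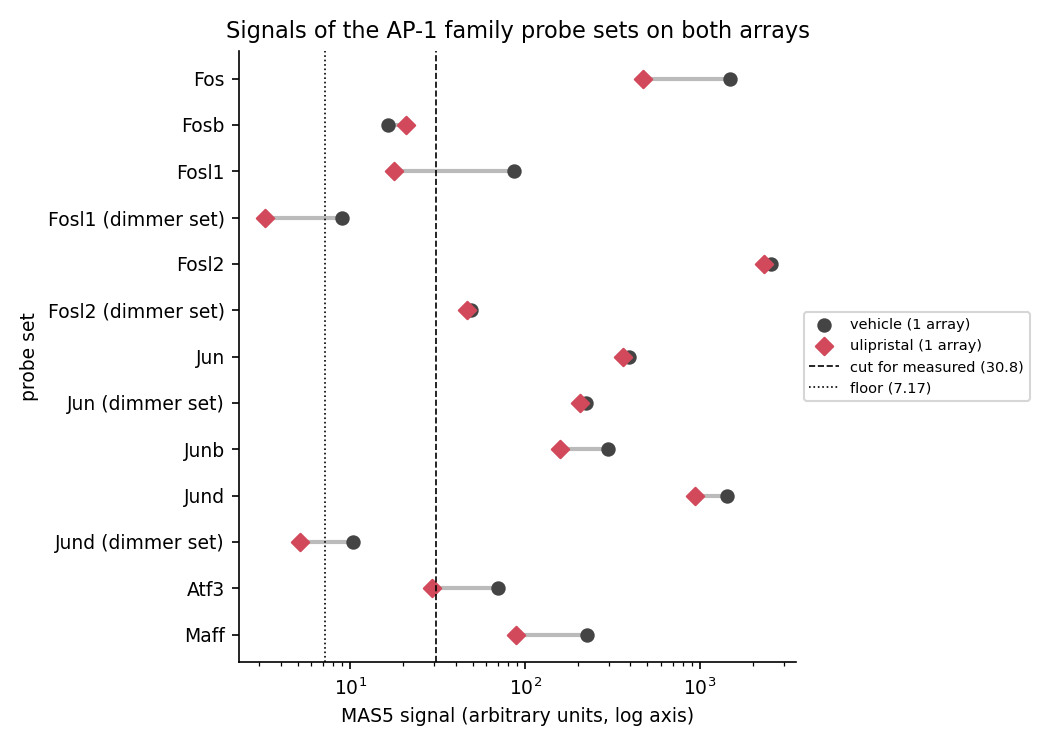
MAS5 signal of each of the 13 AP-1 family probe sets on the vehicle array (circles) and the ulipristal array (diamonds), on a log axis. Dashed and dotted lines mark the cut for measured probe sets (30.8) and the floor (7.17). The vehicle point lies to the right of the ulipristal point in 12 of 13 probe sets, with wide gaps for Fos, Fosl1, Atf3 and Maff and almost none for Jun and Fosl2.

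The promoters of 5 members are shown to set genes past 2-fold, Fos, Atf3 and Maff, beside those nearest to no difference, Jun and Fosl2. Each sequence is the 250 bases before an annotated start, 5′ to 3′ on the gene's strand, from RefSeq with build GRCm38.p6. Capitals mark TGACG on either strand, which reads CGTCA on the opposite strand and is the core of the cyclic AMP response element (CRE), and TGACATCA, the AP-1-like element known from the Jun promoter.
Fos, chr12:85473640-85473889, plus strand: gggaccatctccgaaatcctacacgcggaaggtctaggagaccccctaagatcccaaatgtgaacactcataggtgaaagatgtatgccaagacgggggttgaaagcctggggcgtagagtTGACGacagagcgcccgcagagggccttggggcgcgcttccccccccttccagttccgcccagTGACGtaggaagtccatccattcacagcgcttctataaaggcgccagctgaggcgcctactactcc
Atf3, chr1:191183334-191183583, minus strand: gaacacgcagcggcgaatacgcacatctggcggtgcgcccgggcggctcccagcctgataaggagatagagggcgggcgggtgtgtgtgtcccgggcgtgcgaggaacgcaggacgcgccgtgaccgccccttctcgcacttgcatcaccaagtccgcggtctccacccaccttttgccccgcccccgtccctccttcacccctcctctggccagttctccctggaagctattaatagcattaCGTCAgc
Maff, chr15:79347270-79347519, plus strand: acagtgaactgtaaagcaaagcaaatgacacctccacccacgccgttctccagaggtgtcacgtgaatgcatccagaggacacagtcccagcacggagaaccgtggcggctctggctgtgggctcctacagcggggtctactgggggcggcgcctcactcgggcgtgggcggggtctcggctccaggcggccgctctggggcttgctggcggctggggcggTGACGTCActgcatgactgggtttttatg
Jun, chr4:95052223-95052472, minus strand: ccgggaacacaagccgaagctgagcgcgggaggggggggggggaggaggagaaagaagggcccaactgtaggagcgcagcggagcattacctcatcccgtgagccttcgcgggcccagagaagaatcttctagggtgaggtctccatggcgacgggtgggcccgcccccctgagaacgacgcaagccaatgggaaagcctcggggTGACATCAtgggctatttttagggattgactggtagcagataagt
Fosl2, chr5:32136222-32136471, plus strand: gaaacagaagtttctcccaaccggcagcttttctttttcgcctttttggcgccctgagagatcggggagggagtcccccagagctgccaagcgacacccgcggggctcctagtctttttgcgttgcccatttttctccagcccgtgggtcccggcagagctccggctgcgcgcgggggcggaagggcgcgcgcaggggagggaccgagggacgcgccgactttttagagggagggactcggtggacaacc

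The table held a promoter window for 8 of the 9 members, all but Fosl1, with 3 windows for Maff, of which the one shown holds the whole CRE, TGACGTCA. Within the 250 bases, the core site TGACG occurred in 5 of the 8 members, Fos, Fosb, Junb, Atf3 and Maff. It was in 31.0% of 9196 measured genes, counting a gene with several windows when any of them held it. Fosb, too dim to be measured, and Junb, short of 2-fold, held the core site too, and their windows are not shown. The Fos window held the core site from -129 to -125 and from -66 to -62, followed by the TATA box TATAAA from -33 to -28. In Atf3 it lay from -7 to -3, on the opposite strand. In the Maff window shown, the CRE lay from -29 to -22, and because it reads the same on both strands it also counts as 2 core sites. TGACATCA lay from -45 to -38 in Jun and, by the same distance, in another Maff window. The windows of Jund and Fosl2 held neither the core site nor TGACATCA. The Jund window had 47.6% G and C, the lowest of the 10, and whether the annotated start is the one used in the ovary was not tested. Searched on both strands, TGACG was present in 17.8% of all 32851 windows of that length, TGACGTCA in 1.55%, TGACATCA in 2.93% and TATAAA in 12.4%. The GC box GGGCGG was in 6 of the 8 members and 65.2% of 9196 measured genes, and CCAAT, the box that NF-Y binds, was in 2 of the 8, Jun and Junb, and 40.5% of measured genes. Both counts were near the share of measured genes. The classical AP-1 site TGACTCA was in 0 of the 8 members, in 4.46% of all windows and in 3.98% of measured genes. The CArG box, which serum response factor binds, was in 0 of the 8 members and 1.42% of measured genes. The steroid receptor core site AGAACA was in 0 of the 8 and 12.6% of measured genes. At such shares 0 of 8 says little, and sequence beyond the 250 bases was not searched.

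**Figure D2:**
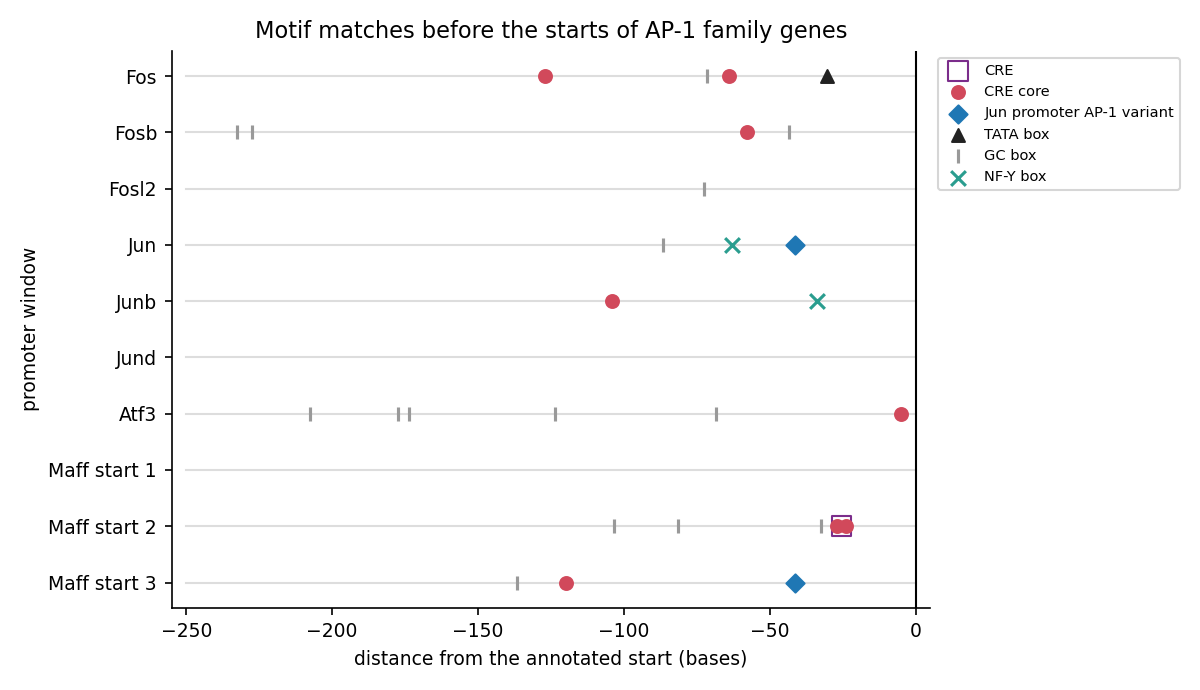
Motif matches in the 250 bases before the annotated starts of 8 AP-1 family genes (10 windows, since Maff has 3 starts), as distance from the start in bases. Each symbol is 1 match on either strand. CRE core sites appear in Fos, Fosb, Junb, Atf3 and 2 of the Maff windows, and the Jund window and the first Maff window hold no match to the motifs drawn.

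Among the Fos-type members, Fos and Fosl1 differed widely, Fosl2 hardly at all. Fos, the founding partner of JUN and a classical immediate early gene, gave signals of 1473 without and 471 with ulipristal on its single probe set, a 3.13-fold lower value with a log2 ratio of -1.64. It ranked 49 from the lowest ratio among 11364 measured genes and 19 among the 3788 genes of the bright tertile. Tertiles divide the measured genes into 3 equal groups by mean log2 signal. In the bright one, 1.85% of genes were at least 2-fold lower, and the middle 95% of log2 ratios ran from -0.85 to 0.66. The Fos ratio therefore lay outside that interval, at a signal far above the cut on both arrays.

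Fosl1, which encodes FRA1, a FOS-type protein without the strong activation domain of FOS, had the lowest ratio of the family. Its signal was 86.4 with vehicle and 17.7 with ulipristal, 4.87-fold lower, with a log2 ratio of -2.28. It ranked 18 among all measured genes and 7 among the 3788 genes of the dim tertile, where 1.87% were at least 2-fold lower and the middle 95% of log2 ratios ran from -0.87 to 1.38. The size of the Fosl1 difference depends on how low signals are treated. With 50 added to every signal the log2 ratio was -1.01, and with the floor raised to the 50th percentile it was -1.47. Its second probe set read 8.96 with vehicle and 3.24 with ulipristal. It was below the cut on both arrays and, with ulipristal, below the floor, so no direction is drawn from it.

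Fosl2, which encodes FRA2, the FOS-type protein known to persist in luteinizing granulosa cells, read 2543 with vehicle and 2316 with ulipristal. Its log2 ratio was -0.13, and it turned to 0.031 after quantile normalization. A second and dimmer probe set read 49.3 and 46.5, a log2 ratio of -0.082. The difference between its probe sets, 0.053 on the log2 scale, was small beside the usual one. Among 4955 genes with at least 2 measured probe sets, the ratios of the brightest pair differed by a median of 0.29, and the 95th percentile was 0.93. Fosl2 ranked 2992 among all measured genes, well inside the spread of the bright tertile.

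Fosb, the FOS-type gene with a long-lived splice form known from the brain, read 16.4 with vehicle and 20.8 with ulipristal. It was the only member with a higher signal on the ulipristal array. Both signals were below the cut of 30.8, and with the floor at the 50th percentile both were set to the same value, so no direction is drawn. Summed over the brightest probe sets, the Fos-type members reached 4118 with vehicle and 2825 with ulipristal. This sum is dominated by whichever probe set is brightest and does not compare amounts between genes.

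None of the Jun-type members reached 2-fold. Junb, an inducible member that can restrain JUN activity, came closest. Its signal was 296 with vehicle and 159 with ulipristal, 1.86-fold lower with a log2 ratio of -0.90. It ranked 226 among all measured genes and 49 in the middle tertile by signal, where 0.950% of genes were at least 2-fold lower and the middle 95% of log2 ratios ran from -0.61 to 0.90. At the 2-fold limit, the called member nearest to it was Atf3 at 2.39-fold and the uncalled member nearest to it was Junb.

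Jund, the Jun-type gene that is expressed steadily in most tissues, read 1425 with vehicle and 935 with ulipristal. This is 1.52-fold lower, a log2 ratio of -0.61, and a rank of 481 among all measured genes. The ratio lay inside the middle 95% of its signal tertile. Its second probe set read 10.4 and 5.17, below the cut on both arrays and with ulipristal below the floor, so no direction is drawn from it.

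Jun, the partner that can form AP-1 dimers on its own, was nearly level. Its probe sets read 393 and 222 with vehicle and 362 and 205 with ulipristal, with log2 ratios of -0.12 and -0.11. They differed from each other by 0.0066 on the log2 scale, and neither reached 2-fold under any of 10 alternative settings. Jun ranked 3145 among all measured genes. Summed over their brightest probe sets, the Jun-type members had signals of 2114 with vehicle and 1456 with ulipristal.

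Atf3 and Maff, the members outside the Fos and Jun types, were both past 2-fold. Maff, a small MAF protein that pairs with itself or with factors of the NRF2 type, read 225 on the vehicle array and 88.9 on the other. It was 2.53-fold lower with a log2 ratio of -1.34, and ranked 88 among all measured genes and 20 in the middle tertile. With 50 added to every signal its log2 ratio was -0.99. Atf3, a stress-inducible factor that represses as a homodimer, read 70.1 and 29.3. It was 2.39-fold lower with a log2 ratio of -1.26, and ranked 103 among all measured genes and 37 in the dim tertile. Its call ended when 16 or 50 was added to every signal, with log2 ratios of -0.93 and -0.60. Each gene has a single probe set, so there is no second value to set beside it.

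**Figure D3:**
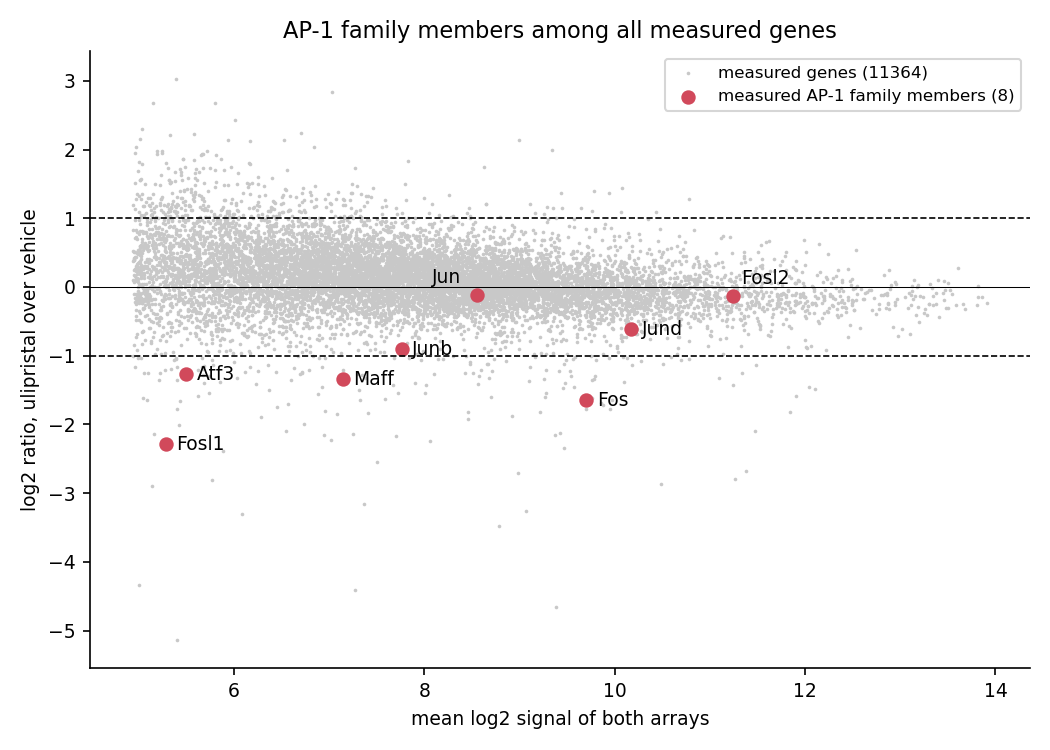
Log2 ratio of ulipristal over vehicle against the mean log2 signal of both arrays for 11364 measured genes (grey) and the 8 measured AP-1 family members (red). Dashed lines mark 2-fold. Fos, Fosl1, Atf3 and Maff lie below the lower line, Junb just above it, and Jun and Fosl2 inside the main cloud.

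Which members passed 2-fold depended on the treatment of low signals. Over 10 alternative settings of scaling, floor, filter, log scale and probe set choice, Fos and Fosl1 stayed past 2-fold in all 10, Maff in 9 and Atf3 in 8. The settings of filter and probe set choice leave the value of a probe set as it is, but with the filter at the 75th percentile only 5 members were bright enough to be measured and 1 of them, Fos, was called. Fos ranged from -1.70 to -1.55 on the log2 scale and Jund from -0.67 to -0.53. Junb stayed short of 2-fold in all 10 settings, with its lowest ratio at -0.99.

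**Figure D4:**
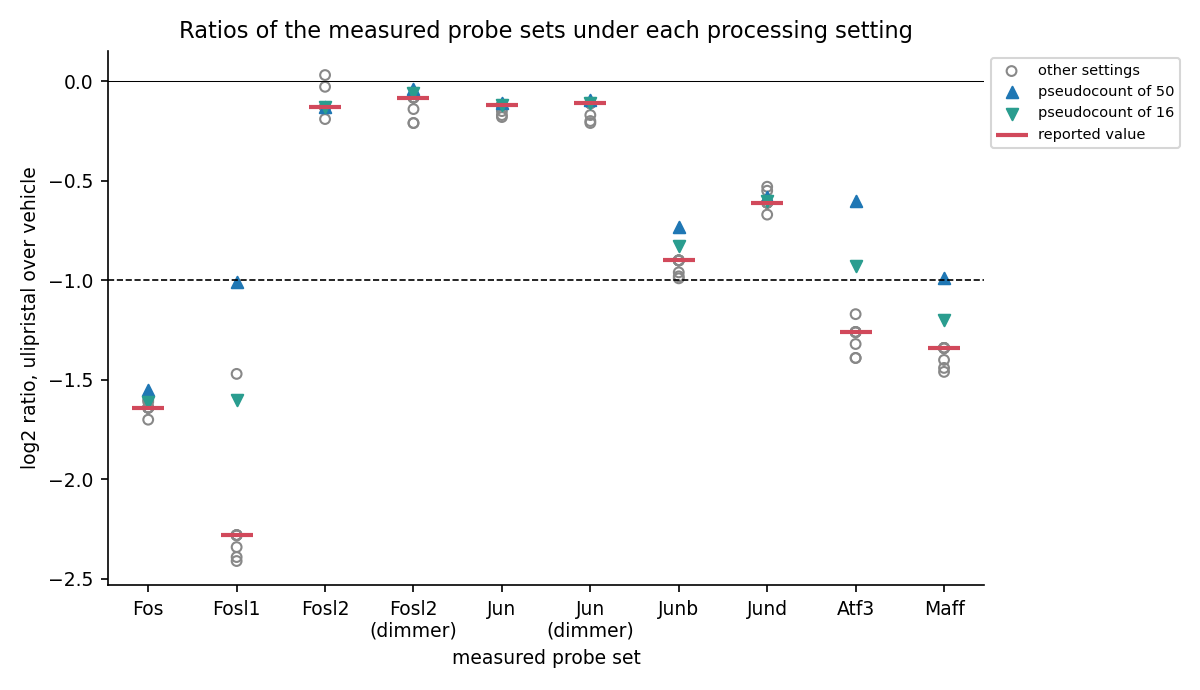
Log2 ratio of ulipristal over vehicle of the 10 measured AP-1 family probe sets, as reported (red bars) and under 10 alternative settings (symbols), with the dashed line at 2-fold lower. Adding a pseudocount of 50 moved Fosl1 from -2.28 to -1.01 and Atf3 from -1.26 to -0.60, whereas Fos, Jun, Jund and Fosl2 moved little.

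The RNA samples also differed in control features and in markers of cell types. The 3′ to 5′ signal ratio of the beta-actin control probe sets, which rises with RNA fragmentation or short labelling products, was 2.40 with vehicle and 1.87 with ulipristal, and that of Gapdh was 1.20 and 0.866. Signals of 18S ribosomal RNA were 2.41-fold and those of the poly-A spikes 1.49-fold higher on the vehicle array. Granulosa cell markers bore out the labelled tissue, with 7 of 7 measured and summed signals of 13999 with vehicle and 16171 with ulipristal. Of these 7, 6 were above 0 and 1 below, and Fshr was 2.26-fold higher (51.1 against 116). Oocyte markers also bore out the tissue, with 7 of 8 measured and sums of 1217 and 1380.1. Oviduct markers were above 0 in 6 of 6 cases and at least 2-fold higher in 5, with a median log2 ratio of 1.29 and sums of 3825 and 6122. The sums were carried by Ovgp1 (3641 against 5642), and the cilium gene Foxj1 was 3.93-fold higher. Of the 4 neutrophil markers, S100a8 and S100a9 were at least 2-fold lower, Ltf was at least 2-fold higher and Csf3r was below the cut at 19.1 and 21.1, with sums over the measured genes of 416 and 289. Macrophage markers were above 0 in 7 of 7 cases, with sums of 1106 and 1362, and C1qc was 2.03-fold higher (97.7 against 198). All 5 smooth muscle markers, all 3 measured adipose markers, 4 of 5 endothelial, 3 of 4 stromal and 2 of 3 measured theca markers were also above 0. Of these, the endothelial genes Tie1 and Pecam1 and the adipose gene Cidec were at least 2-fold higher. The remaining theca marker, Hhip, a hedgehog-binding protein gene, was 4.67-fold lower, with all 3 of its probe sets below 0. For comparison, 40.0% of all measured genes were below 0 and 3.34% were at least 2-fold higher. The median log2 ratio was 0.25 in the dim tertile by signal and 0.12 in the middle one, so small positive ratios were common. Other probe sets of C1qb (-0.22), Csf1r (-0.17) and Myh11 (-0.30) were below 0. The part of the control and marker differences in the AP-1 family ratios was not tested.

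Other factors with a basic leucine zipper were listed only from the BATF and JDP, MAF, CNC and BACH, and CREB and ATF groups. In these lists, Bach1 was the only measured gene past 2-fold on its brightest probe set. With 1.56% of all measured genes lower and 3.34% higher by this limit, so few calls say little about the lists. Of the BATF and JDP factors, which pair with JUN-type proteins, 3 of 4 were measured and 0 reached 2-fold. Batf3 had the largest difference (49.6 against 31.3) and Jdp2 read 140.0 and 148. Of the other MAF factors, 3 were measured and 0 reached 2-fold, with Mafk at 191 and 154 and Maf at 1056 and 876. Among the CNC and BACH factors, which pair with small MAF proteins such as MAFF, 1 of 4 measured genes was at least 2-fold lower. This was Bach1, a repressor of antioxidant genes, at 1089 with vehicle and 526 with ulipristal, with both of its probe sets lower (log2 ratios of -1.50 and -1.05). Of the CREB and other ATF factors, 8 were measured and 0 reached 2-fold, with a median log2 ratio of -0.16. Creb3 (869.6 against 546) and Crem, a cyclic AMP-responsive factor (309 against 202), had the largest differences. A dimmer probe set of Crem was past 2-fold, with a log2 ratio of -1.09.

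Messages of kinases, cofactors and coactivators that act on the family did not reach 2-fold in any measured case. Of 16 measured genes of the MAP kinase cascade, 0 reached 2-fold in either direction, with a median log2 ratio of 0.14. Mapk13, a p38-type kinase, had the largest difference at low signals of 36.4 and 67.7. Serum response factor, Srf, which drives Fos through the CArG box, read 304 and 234, and its cofactors lay between log2 ratios of -0.29 and 0.15. Coactivators such as Crebbp and Ep300 also had 0 of 5 past 2-fold. Among regulators of turnover, 1 of 7 was at least 2-fold lower. This was Zfp36, which encodes tristetraprolin, a protein that binds AU-rich elements and speeds the decay of short-lived messages, with signals of 619 and 233 and a log2 ratio of -1.41. Other immediate early genes, from the EGR, NR4A, KLF and related groups, were below 0 in all 18 measured cases, and 8 of these reached 2-fold; the list's median log2 ratio was -0.88.

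Textbook targets of AP-1 were lower more often than higher. Of 14 measured genes in the list, 11 had a log2 ratio below 0 and 3 above 0, against 40.0% below 0 among all measured genes. By the 2-fold limit, 4 were lower, 1 was higher and 9 lay between, with a median log2 ratio of -0.59. The lower genes were Il6, Il11, Mt2 and Plau, the urokinase gene (408 against 197), and the higher one was Tgfb1, a growth factor gene (56.5 against 125). A dimmer probe set of Plau was short of 2-fold, with a log2 ratio of -0.39. Hbegf, counted above 0 with a log2 ratio of 0.55, had a dimmer probe set at -0.64. Il11 (96.5 against 12.9) was above the signal cut on the vehicle array alone. Timp1, a metalloproteinase inhibitor, read 4060.1 and 2473, and Ccnd1, which encodes cyclin D1, read 265 and 227. The metalloproteinase genes Mmp3, Mmp9, Mmp10 and Mmp13 were all below the cut, with signals between 6.36 and 24.2. The list was chosen with earlier results of these data known, and its count is a description.

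**Figure D5:**
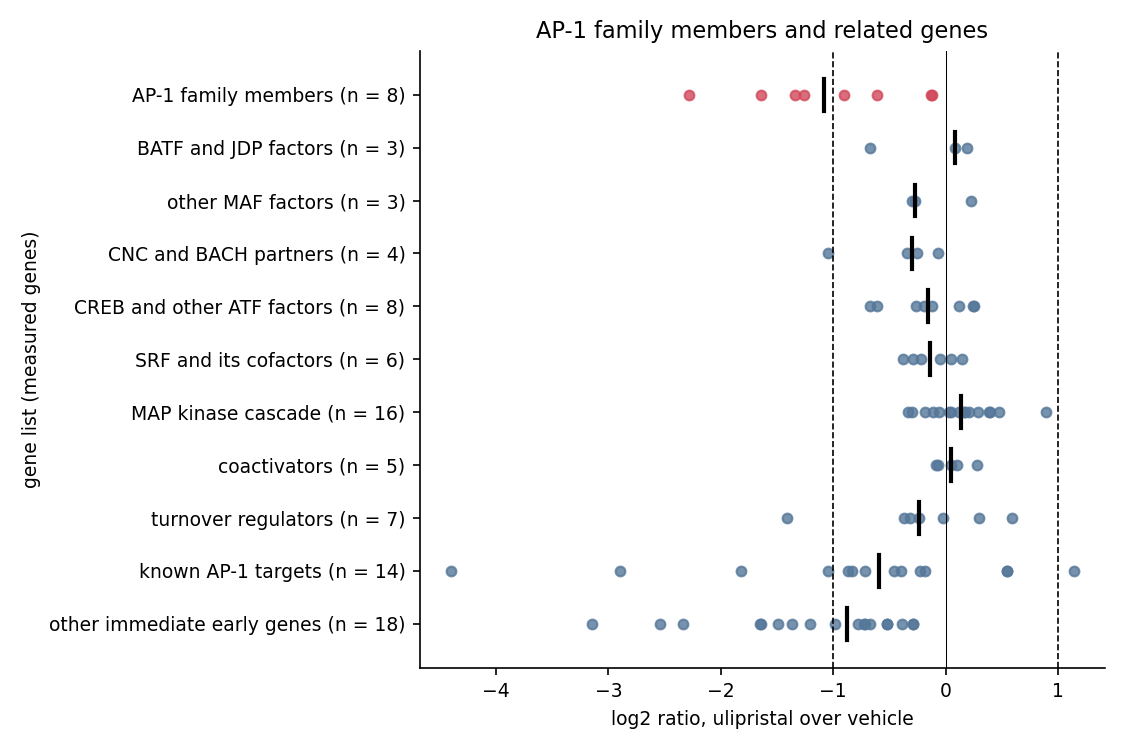
Log2 ratio of ulipristal over vehicle for the measured AP-1 family members (red) and the measured genes of related lists (blue), with 1 point per gene, black bars at each list's median and dashed lines at 2-fold. All 18 other immediate early genes lie below 0, whereas the 16 genes of the MAP kinase cascade lie on both sides of it.

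The site that AP-1 dimers bind was also counted in the promoters of genes on either side of the comparison. Of the 177 genes at least 2-fold lower with ulipristal, 138 had a promoter window in the table, and 15 of these (10.9%) held TGACTCA on either strand. It was held by 366 of 9196 measured genes (3.98%) and by 15 of 299 genes (5.02%) at least 2-fold higher. A gene with several starts has several windows, with means of 1.34 per gene at least 2-fold lower, 1.28 per gene at least 2-fold higher and 1.29 over all measured genes. Among genes with a single window, the shares were 10 of 110 (9.09%), 7 of 233 and 194 of 7282 (2.66%). At 1.5-fold, again counting genes with any number of windows, the site was held by 8.17% of 404 lower genes and 4.22% of 1113 higher genes. Some of the lower genes counted here were above the signal cut on the vehicle array alone, the array on which they were high. These shares are descriptions of 250-base windows without a test, and a match does not show that the family binds there.

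The 15 lower genes with a match, named after their values were seen, ranged from 2.02-fold to 21.2-fold lower. They included the cytokine genes Il6 and Il11 and F3, which encodes tissue factor, the starter of blood clotting (1664 against 174). Mt2, a metallothionein gene, and Tnfaip6, a hyaluronan-binding protein gene of the cumulus matrix, were also among them. Of signalling genes, Sphk1, a sphingosine kinase, read 440.1 and 152, and F2r, a thrombin receptor, read 2198 and 1091. The neuropeptide genes Nmu (86.0 against 21.4) and Nts, neurotensin (525 against 241), were further members of this group. In Mt2 the match began at -79, in Nts at -207 and in Fgl2, a secreted fibrinogen-like protein gene (1289.6 against 617), at -16.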

How the data were processed

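Total RNA of whole ovaries was labelled from 100 ng and hybridised to Affymetrix Mouse Genome 430 2.0 arrays, 1 per treatment, per the labels' protocols. The deposited table holds an intensity per probe set, not log-transformed. MAS5 and version 1 of Affymetrix Expression Console are listed, per the submitters' processing notes, and a genome build was not found in the sources used here. Leaving out 2% of values at each end, the mean is 150.001 for either array, so scaling would hide a change common to most genes. For arrays, their number limits the precision.

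Of 45101 probe sets, 64 were controls and 34945 named 1 gene. Gene identifiers of 34741 were found in the RefSeq gene table, with 0 changed symbols. Signals were floored at the 25th percentile and log2-transformed, and the ratio is ulipristal minus vehicle. All probe sets of the members are named, and of other lists the genes past 2-fold or with the largest ratios, plus single genes chosen after their values were seen. The members and lists were chosen with earlier results of these data known. Alternatives changed the scaling (by quantile, by median, or by lowess with fraction 0.3), the floor (none, or the 50th percentile), the filter (none, or the 75th percentile), the log scale (pseudocounts of 16 or 50 in place of the floor), the gene value (median over probe sets, or no s or x sets) and the limit (1.5-fold or 3-fold). The steps were tested on simulated data. Computations used Python 3.11.15 with pandas 2.3.3 and numpy 2.4.6, lowess from statsmodels 0.14.6, and plots from matplotlib 3.10.9.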

Additional observations from a re-analysis of the deposited data

How the results depend on the processing

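The 4 lower members were Fos, Fosl1, Atf3 and Maff under median centring, quantile normalization, lowess centring, both changes of the floor, no filter, the median over probe sets and the removal of s and x probe sets. Their number fell to 1 with the filter at the 75th percentile, where only 5 members were measured and Fos alone was called. It was 3 with a pseudocount of 16 and 2 with a pseudocount of 50 or a 3-fold limit, and 6 at 1.5-fold, where Junb and Jund joined. Over the 13 probe sets the count was also 2 with a pseudocount of 50 or a 3-fold limit. Of all measured genes, 1.43% were lower with the filter at the 75th percentile, 1.21% with a pseudocount of 16 and 0.862% with one of 50. At a 3-fold limit 0.502% were lower, and at 1.5-fold 4.58% were lower and 12.3% higher. No setting gave a member at least 2-fold higher. The median log2 ratio of measured members, -1.08, was -0.90 without the filter, -0.61 with the filter at the 75th percentile, -0.88 with a pseudocount of 16 and -0.66 with one of 50. Without a floor, the dim probe sets of Fosl1 and Jund gave log2 ratios of -1.47 and -1.01.

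Over all related lists but the cell type markers, 14 genes passed the 2-fold limit downward and 1 upward. Of all measured genes, 1.56% were lower and 3.34% higher by this limit. Among the 14, 8 came from the 18 measured immediate early genes and 4 from the 14 measured AP-1 targets. The lists were chosen with earlier results of these data known. Over the lists, the lower count was 25 at 1.5-fold and 8 at 3-fold, where 4.58% and 0.502% of all measured genes were lower. The higher count was 3 without the filter or at 1.5-fold, and 0 with the filter at the 75th percentile, with either pseudocount or at 3-fold. Apart from the limit and the filter, which change what is counted, the cause of these shifts was not tested. No paired analysis was possible because each treatment has 1 array. Leaving out an array was not possible for the same reason.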

Other observations

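Other promoter motifs were counted in the same 250-base windows, on either strand, without a test. The CRE core site TGACG was in 51 of 138 genes (37.0%) at least 2-fold lower with ulipristal, 65 of 299 (21.7%) at least 2-fold higher and 31.0% of 9196 measured genes. The whole CRE, TGACGTCA, was in 5.07%, 3.01% and 3.02% of these genes. The CArG box of serum response factor was in 4.35% of lower genes, 1.34% of higher genes and 1.42% of measured genes, 6 of 138 in the lower group. The core site AGAACA, which glucocorticoid and progesterone receptors share, was in 8.70% of lower, 13.4% of higher and 12.6% of measured genes. The mean share of G and C was 60.5% in windows of lower genes, 57.9% in those of higher genes and 60.3% in those of measured genes.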
